A study of Mus musculus with 6 samples.

Results

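Antioxidant genes that the transcription factor NRF2 is known to switch on were followed in mouse liver: Nqo1, Gclc, Gclm, Txnrd1, Srxn1, Slc7a11, Gsr, G6pdx, Osgin1 and Gpx2. They were chosen by gene symbol, and all 10 were found among the 47729 genes of the count files. The livers came from C57BL/6 mice, controls included, that had eaten chow with 0.1% DDC for 17 days. DDC disturbs heme synthesis, and porphyrin plugs then obstruct the small bile ducts. There were 3 control libraries, which the titles and the genotype label call WT and the series design calls shNC, and 3 libraries labelled ATOH8 knockdown, shAtoh8 in the design. The targeted gene, Atoh8, codes for a transcription factor of the basic helix-loop-helix family. The labels give neither the age nor the sex of the mice, nor how the short hairpin RNA reached the liver or in which cells it acted. They do not say whether replicates were separate animals, so the p-values cover the spread among these libraries alone, and that spread may be technical.

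NRF2, encoded by Nfe2l2, is kept low in resting cells because KEAP1 hands it to a ubiquitin ligase for degradation. Oxidants and electrophiles modify KEAP1, NRF2 then accumulates, pairs with a small MAF protein and binds antioxidant response elements near its target genes, where BACH1 can compete for the same sites. The targets described here make glutathione (Gclc, Gclm, Slc7a11), recycle or use it (Gsr, Gpx2), serve the thioredoxin and peroxiredoxin system (Txnrd1, Srxn1), supply NADPH (G6pdx), reduce quinones (Nqo1) or respond to oxidative stress in other ways (Osgin1). In the liver the programme is known for its part in the defence against bile acids, porphyrins and drugs.

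Promoter sequences are shown where the core letters of the element that NRF2 is known to bind occur in them. RefSeq promoter windows of GRCm38.p6, from 250 bases before to 50 bases after a start site, existed for 8 of the 10 genes. The core of the element, TGACNNNGC, was searched on both strands. It occurred in the windows of 4 of the 8 genes (50%: G6pdx, Gclm, Srxn1 and Txnrd1), against 13.99% of all 27025 genes with a window and 17.0% of the 10042 tested genes with one. Txnrd1 had 3 windows, so the share was also counted per window, where it was 40% for these genes and 12.4% for all 32851 windows. The 3 matches that lay before the start site are printed below 5′ to 3′ on the gene's strand with 20 bases on each side. Capitals mark the match, which reads as the core on the opposite strand in all 3. The start site is that of the RefSeq window. For G6pdx and Txnrd1 it lies inside the coordinates given for the gene further below, not at their edge.
G6pdx, chrX:74428909-74428957, minus strand, 57 bases before the start site: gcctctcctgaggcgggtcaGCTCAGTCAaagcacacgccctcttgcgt
Gclm, chr3:122245403-122245451, plus strand, 134 bases before the start site: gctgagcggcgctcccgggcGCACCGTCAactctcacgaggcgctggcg
Txnrd1, chr10:82859094-82859142, plus strand, 92 bases before the start site: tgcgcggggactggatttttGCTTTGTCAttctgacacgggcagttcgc
A match describes letters, not binding. The windows of Nqo1, Osgin1, Slc7a11 and Gpx2 held no match, nor did the other windows of Txnrd1.

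Reads assigned to genes ranged from 31912058 to 37969644 per library, so the floor of 3 reads lay between 0.0790 and 0.0940 CPM, the read count relative to library size. Floors cover counting error only. In the 3 controls Atoh8 had TMM-scaled levels (TMM puts the libraries on a common scale over most genes) of 63.8, 16.8 and 16.4 CPM, in the order of their replicate numbers, and in the 3 knockdown libraries of 10.2, 9.83 and 5.64 CPM. The same order is kept throughout. Its groups did not overlap, but control replicate 1 lay far above the other controls, and the difference of -1.92 (SE 0.58, log2 scale) did not pass with all 6 libraries (adjusted p = 0.197, edgeR quasi-likelihood test with Benjamini-Hochberg adjustment over all 13767 genes tested). Leaving that library out gave -0.95 (SE 0.23, edgeR adjusted p = 0.0115). Over all 18 alternatives the adjusted p for Atoh8 ran from 0.000536 to 0.570. Since this library differed from the other controls at many genes, each result on the 10 genes is given with and without it. The hepatocyte markers, led by Alb and Apoa1, summed to between 104809 and 140475 CPM in every library. The deposited label of hepatocyte sits beside a protocol that describes whole livers, and in such bulk RNA fewer cells of a type and less RNA per cell cannot be told apart.

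The 10 genes covered a wide range of abundance. Levels between genes were compared in FPKM, which divides by transcript length. Averaged over the 6 libraries, Gclc was highest at 164 FPKM, followed by Srxn1 at 125, Gclm at 113, Osgin1 at 82.6, Txnrd1 at 80.7, Gsr at 59.2 and Nqo1 at 35.4 FPKM. Far below came Gpx2 at 6.68, G6pdx at 5.52 and Slc7a11 at 1.16 FPKM. The single libraries of neighbours in this order overlapped everywhere except between Nqo1 (25.6 to 51.7 FPKM) and Gpx2 (2.43 to 16.6 FPKM) and between G6pdx (4.65 to 6.35 FPKM) and Slc7a11 (0.409 to 2.03 FPKM). An abundant group of 7 genes thus lay above a scarce group of 3. Within the abundant group Gclc, Srxn1 and Gclm were above Gsr and Nqo1 in every library, while neighbours in the order overlapped.

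**Figure D1:**
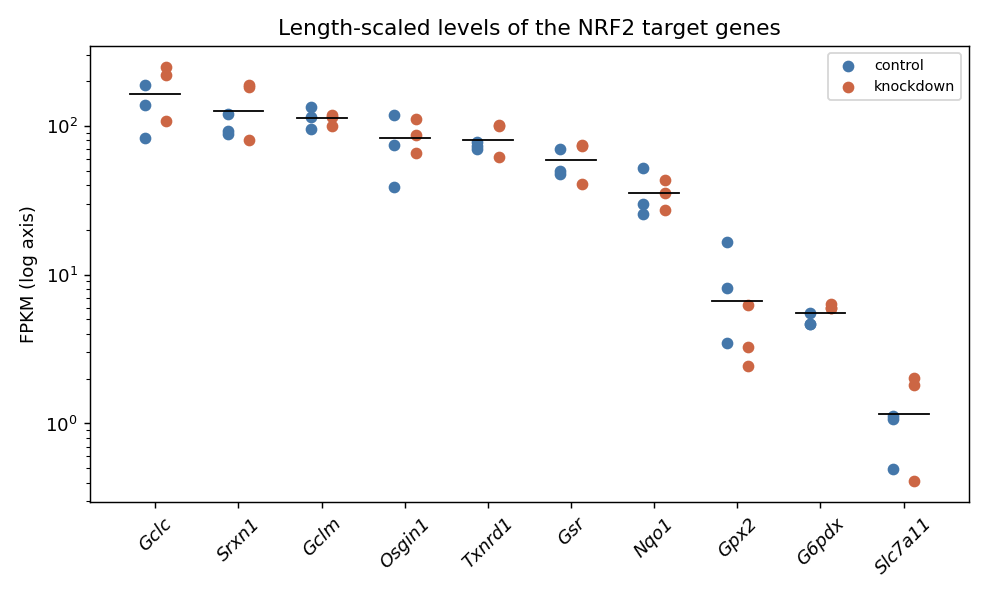
Deposited FPKM values (log axis) of the 10 genes in 3 control and 3 knockdown libraries; each point is a library and each line the mean of all 6. Gclc leads at 164 FPKM and Slc7a11 is lowest at 1.16 FPKM, with a gap between Nqo1 and Gpx2.

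None of the 10 genes passed the test between knockdown and control with all 6 libraries. edgeR called 0 of 10 at an adjusted p under 0.05, where 0.864% of all tested genes were called (102 higher and 17 lower of 13767). At an unadjusted p under 0.05 it was 1 of 10, G6pdx, against 14.5% of all genes. DESeq2 called 0 of 10 (5.12% of its genes), limma on log2(FPKM + 1) and log2(FPKM + 0.1) also 0 (1.09% and 0.725%), and edgeR with library-wise offsets for GC content and length of transcripts 0 (4.52%). Limma-voom with quality weights, which gives variable libraries less weight, called 3 of 10 (37.0% of its genes): Srxn1, G6pdx and Gpx2. All 10 had enough reads to be tested. The median difference of the 10 was 0.21 on the log2 scale, beside -0.05 for all genes tested, and 8 of the 10 differences were positive, beside 45.3% of all genes. Without control replicate 1, edgeR called G6pdx higher and Gpx2 lower, which is 2 of 10 where 32.6% of all genes were called (16.5% higher and 16.1% lower). The median was then 0.38 beside 0.01, and 8 of 10 were again positive beside 50.8%. The share of called genes was thus no higher among these targets than among genes at large. Over the 18 alternatives the adjusted p of the other 7 genes never passed, and the lowest among them was 0.0791, for Osgin1. The values of each gene are given by role.

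**Figure D2:**
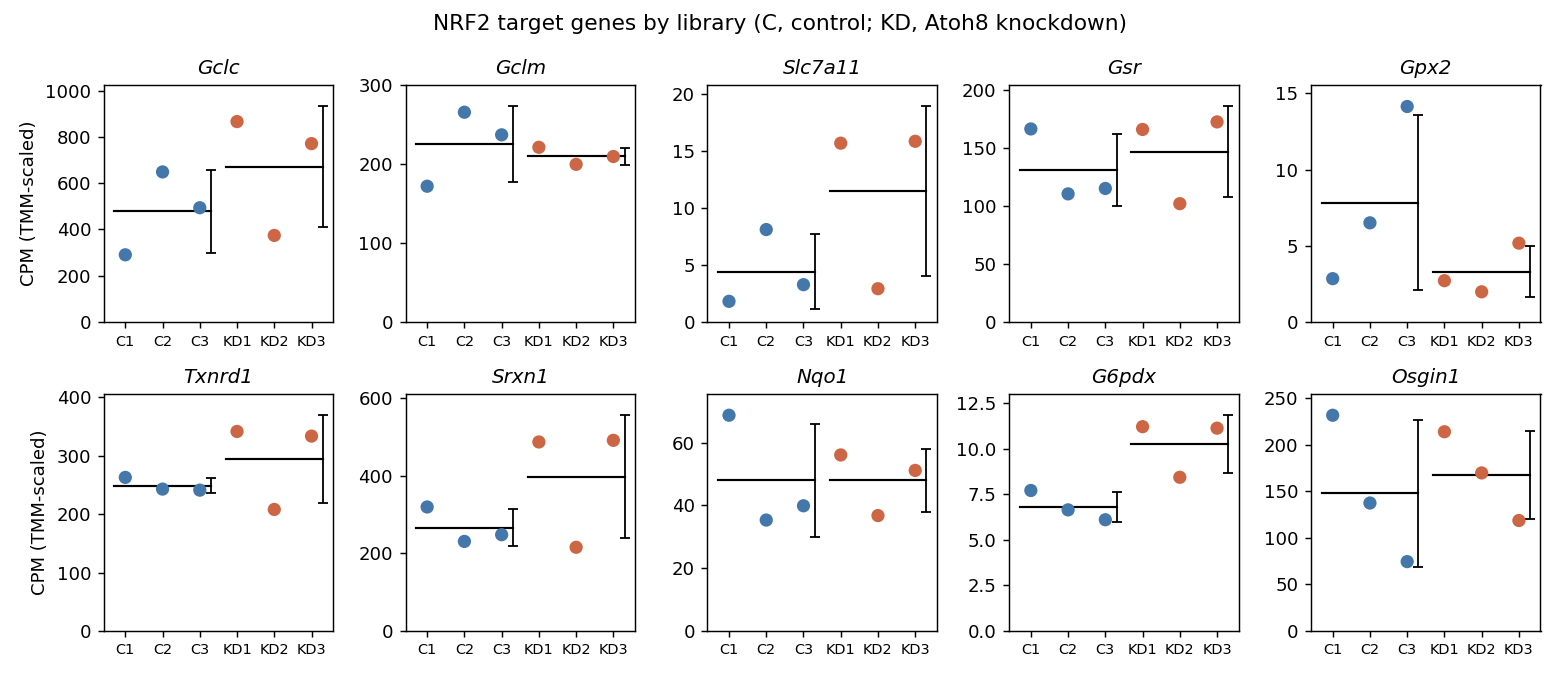
TMM-scaled CPM of each gene (axis from 0, own scale per gene) in control replicates 1 to 3 (C) and knockdown replicates 1 to 3 (KD); lines and bars are group means and SD, n = 3. G6pdx is the gene whose groups do not overlap, and the second knockdown library is the lowest of its group for 9 of the 10 genes.

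Glutathione synthesis begins with glutamate-cysteine ligase, an enzyme of a catalytic subunit, Gclc, and a modifier subunit, Gclm. Gclc (ENSMUSG00000032350, GRCm38 chr9:77754535-77794485, plus strand) was at 291, 649 and 494 CPM in the controls and at 866, 374 and 771 CPM in the knockdown libraries. The groups overlapped, since the second knockdown library lay below 2 controls. The group means were 478 ± 179 and 670.3 ± 261 CPM (SD, n = 3 each), and the log2 difference was 0.49 (SE 0.40, edgeR adjusted p = 0.636). Leaving out control replicate 1 gave 0.25 (SE 0.31, edgeR adjusted p = 0.572).

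Gclm (ENSMUSG00000028124, chr3:122245557-122270732, plus strand), whose promoter match is printed above, was the steadiest of the 10 in the knockdown group. It was at 172, 266 and 237 CPM in the controls and at 221, 199.9 and 209.8 CPM in the knockdown libraries. All 3 knockdown values lay inside the range of the controls, whose low end was control replicate 1. Without that library the knockdown values lay below both controls, and groups did not overlap for 58.6% of all genes. The log2 difference was -0.10 (SE 0.21, edgeR adjusted p = 0.870), and -0.24 (SE 0.14, edgeR adjusted p = 0.203) without control replicate 1. Catalytic and modifier subunit thus had differences of opposite sign, neither of which passed the test, and the difference between the subunits was not tested.

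Slc7a11 (ENSMUSG00000027737, chr3:49892526-50443614, minus strand) encodes the cystine carrier of the cystine-glutamate exchanger, which brings in the cysteine that glutathione synthesis needs. It was scarce, and its knockdown libraries spread over the widest range in CPM of the 10 genes. The controls had 55, 283 and 101 reads (1.82, 8.11 and 3.28 CPM), and the knockdown libraries 647, 112 and 680 reads (15.7, 2.93 and 15.8 CPM). Knockdown replicates 1 and 3 lay above every control, whereas replicate 2 lay inside the control range. The log2 difference of 1.38 was the largest positive one among the 10, with an SE of 0.74 and an edgeR adjusted p of 0.452. With 2 controls, replicate 1 left out, it was 1.03 (SE 0.61, edgeR adjusted p = 0.224). In deposited FPKM the difference was smaller, at 0.29 with limma on log2(FPKM + 1) and 0.43 on log2(FPKM + 0.1) (adjusted p = 0.752 and 0.828).

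Glutathione reductase, Gsr (ENSMUSG00000031584, chr8:33652523-33698163, plus strand), returns oxidised glutathione to its reduced form with NADPH. It was at 166, 110.3 and 115 CPM in the controls and at 166, 102 and 172 CPM in the knockdown libraries. A high and a low level occurred in both groups, and the groups overlapped. The log2 difference was 0.17 (SE 0.27, edgeR adjusted p = 0.820), and 0.40 (SE 0.21, edgeR adjusted p = 0.183) without control replicate 1.

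Gpx2 (ENSMUSG00000042808, chr12:76792333-76795554, minus strand), a glutathione peroxidase best known from the gut epithelium, had the largest negative difference. It had 86, 227 and 435 reads in the controls (2.85, 6.51 and 14.1 CPM) and 112, 76 and 222 reads in the knockdown libraries (2.71, 1.99 and 5.17 CPM). The controls differed widely among themselves, and control replicate 1 lay inside the knockdown range. With all 6 libraries the log2 difference was -1.25 (SE 0.61, edgeR adjusted p = 0.411). With control replicate 1 left out the groups no longer overlapped, as for 58.6% of all genes, and Gpx2 was called lower, at -1.62 (SE 0.41, edgeR adjusted p = 0.0137). Without control replicate 3, the highest control, it was -0.51 (SE 0.54, edgeR adjusted p = 0.807). Over all 18 alternatives the adjusted p ran from 0.00873 to 0.864. Gpx2 overlaps Fntb on the other strand, which had 91 to 168 reads. No source used here states a strand setting for the counting, and reads of overlapping genes cannot be told apart without one.

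Thioredoxin reductase 1, Txnrd1 (ENSMUSG00000020250, chr10:82833951-82897712, plus strand), passes electrons from NADPH to thioredoxin. It was at 263, 243 and 241 CPM in the controls, the tightest control group of the 10, and at 342, 208 and 334 CPM in the knockdown libraries. Knockdown replicates 1 and 3 lay above all controls and replicate 2 below all controls. The mean was 249 ± 12.1 CPM in the controls and 295 ± 75.0 CPM in the knockdown group (SD, n = 3 each). The log2 difference was 0.24 (SE 0.23, edgeR adjusted p = 0.692), and 0.30 (SE 0.21, edgeR adjusted p = 0.311) without control replicate 1.

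Sulfiredoxin, Srxn1 (ENSMUSG00000032802, chr2:152105516-152111376, plus strand), repairs overoxidised peroxiredoxins and had the same arrangement at a larger size. It was at 319, 230.4 and 248 CPM in the controls and at 487, 215 and 491 CPM in the knockdown libraries. Again knockdown replicates 1 and 3 exceeded every control and replicate 2 lay below all of them. The log2 difference of 0.58 had an SE of 0.34 and an edgeR adjusted p of 0.491. Without control replicate 1 it was 0.75 (SE 0.31, edgeR adjusted p = 0.0865), and limma-voom with quality weights called it at 0.74 (adjusted p = 0.0484). Over the 18 alternatives the adjusted p ran from 0.0484 to 0.896.

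G6pdx (ENSMUSG00000031400, chrX:74409483-74429194, minus strand) encodes glucose-6-phosphate dehydrogenase, the entry enzyme of the pentose phosphate pathway and a main source of NADPH. It had 233, 232 and 188 reads in the controls (7.72, 6.65 and 6.11 CPM) and 463, 323 and 478 reads in the knockdown libraries (11.2, 8.44 and 11.1 CPM). Every knockdown library was above every control, which held for G6pdx and for no other of the 10 genes, while 23.1% of all tested genes had groups that did not overlap. The means were 6.82 ± 0.818 and 10.3 ± 1.58 CPM (SD, n = 3 each). The log2 difference was 0.59 (SE 0.23), with an unadjusted p of 0.0353 and an edgeR adjusted p of 0.299. In deposited FPKM it was smaller, at 0.25 with limma on log2(FPKM + 1) and 0.30 on log2(FPKM + 0.1) (adjusted p = 0.574 and 0.553).

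Without control replicate 1, G6pdx was called higher at 0.70 (SE 0.20, edgeR adjusted p = 0.0224). With an offset for GC content and transcript length added to that fit, it was 0.43 and was no longer called (edgeR adjusted p = 0.0968, with 31.8% of all genes called), and over all alternatives the adjusted p ran from 0.0140 to 0.708. G6pdx overlaps Ikbkg, a subunit of the NF-kappa-B kinase, on the other strand. Ikbkg had 2939, 3911 and 2622 reads in the controls and 5332, 3786 and 5626 reads in the knockdown libraries, many times the reads of G6pdx, so a misplaced fraction could not be told apart from G6pdx reads. The near-identical copy G6pd2 had 0 reads in every library, which allows up to 3 reads.

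Nqo1 (ENSMUSG00000003849, chr8:107388225-107403206, minus strand), the quinone reductase that is often used as the reporter of NRF2 activity, did not separate the groups. It was at 68.7, 35.3 and 39.9 CPM in the controls and at 56.1, 36.7 and 51.1 CPM in the knockdown libraries. The highest and the lowest of the 6 values were both controls. The means were 47.97 ± 18.1 and 47.98 ± 10.04 CPM (SD, n = 3 each), and the log2 difference was 0.00 (SE 0.30, edgeR adjusted p = 1.000). It was 0.37 without control replicate 1 (SE 0.18, edgeR adjusted p = 0.144).

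Osgin1 (ENSMUSG00000074063, chr8:119434124-119446256, plus strand), an oxidative stress-induced growth inhibitor, varied most among the abundant genes within the controls. It was at 232, 138 and 74.5 CPM in the controls and at 214, 169.9 and 119 CPM in the knockdown libraries. The knockdown values all lay inside the control range. The log2 difference was 0.18 (SE 0.42, edgeR adjusted p = 0.879), and 0.67 (SE 0.28, edgeR adjusted p = 0.0917) without control replicate 1.

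**Figure D3:**
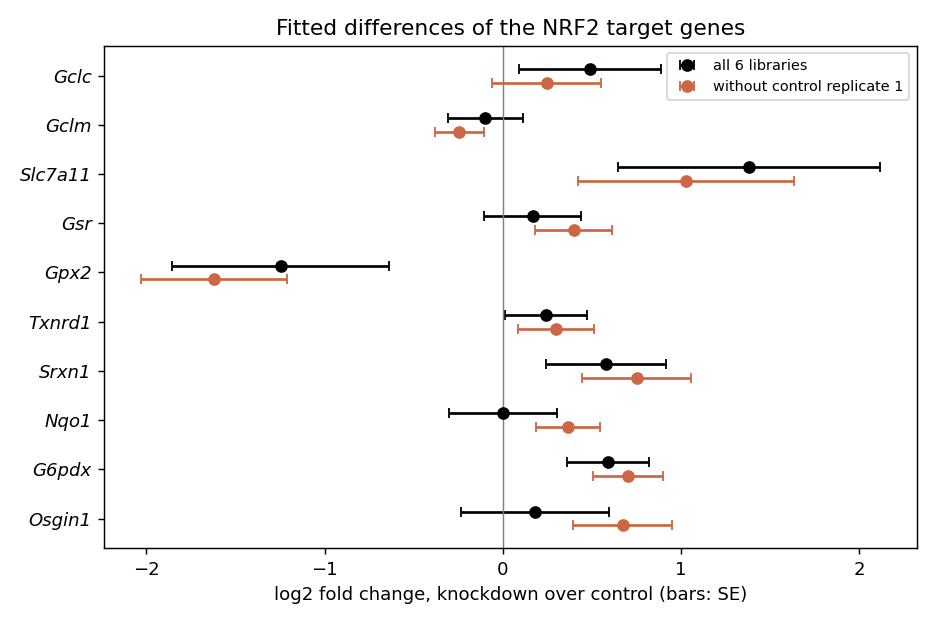
Log2 fold change of knockdown over control (x axis; bars, SE) for each gene with all 6 libraries and without control replicate 1. Leaving that library out moves Nqo1 from 0.00 to 0.37 and Osgin1 from 0.18 to 0.67, while Slc7a11 and Gpx2 keep the largest differences of either sign.

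The 3 knockdown libraries differed widely from each other at most of these genes. The highest knockdown library exceeded the lowest 5.41 times for Slc7a11, 2.61 times for Gpx2, 2.31 times for Gclc and 2.28 times for Srxn1. The ratio was smallest for Gclm, at 1.11, and for G6pdx, at 1.33. Its median was 1.75 for the 10 genes and 1.30 for all tested genes, and 1.23 for the 9254 genes that averaged 5 CPM or more. In 8 of the 10 the ratio passed 1.5, as it did for 29.8% of all tested genes. Within the controls, by contrast, the median ratio was 1.75 for the 10 and 1.85 for all tested genes.

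The second knockdown library was the lowest of its group for 9 of the 10 genes, with Osgin1 the exception, while it was the lowest for 34.8% of all tested genes. For Nqo1, Gclc, Txnrd1, Srxn1, Slc7a11, Gsr and Gpx2 it was the lowest and the ratio passed 1.5, which is 7 of 10 genes against 11.1% of all tested genes. This arrangement was noticed after the values were seen. In deposited FPKM the second library was the lowest for 8 of the 10, because G6pdx, at 6.35, 5.97 and 5.92 FPKM in the knockdown libraries, was there lowest in knockdown replicate 3. Summed over the 10 genes, the controls reached 1524, 1692 and 1473 CPM and the knockdown libraries 2381, 1320 and 2179 CPM. The knockdown group thus held the highest and the lowest sums of all 6 libraries. Atoh8 itself, at 9.83 CPM in the second knockdown library, lay between the other two.

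**Figure D4:**
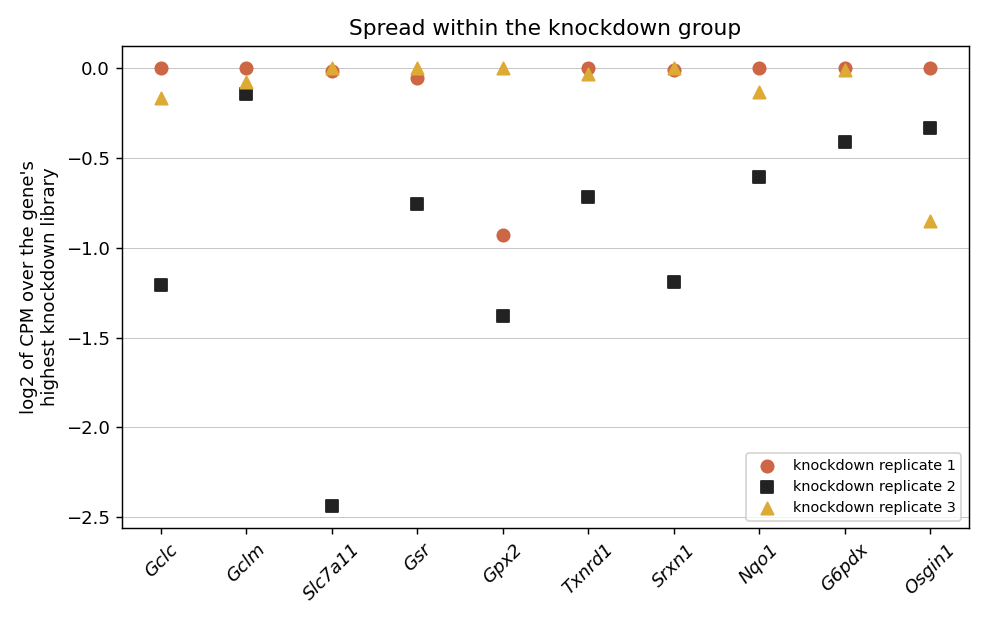
Log2 of each knockdown library's CPM over the highest knockdown library of the same gene (y axis; 0 is the highest), for the 10 genes. The squares of the second library are lowest for 9 genes, down to the 5.41-fold spread of Slc7a11, and the spread of Gclm is 1.11-fold.

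Marker genes of other liver cells also differed between the knockdown libraries. The cholangiocyte markers summed to 593, 364 and 571 CPM there and to 60.4, 66.3 and 65.4 CPM in the controls. Most of that sum was Spp1, which other cells make too, and Krt19, Krt7 and Cftr, among the defining markers, were too low to be tested. Of the 6 tested cholangiocyte markers, 2 were called higher with all 6 libraries, where 0.864% of all genes were called in either direction. Stellate and fibroblast markers summed to 208, 224 and 214 CPM in the controls and 390.2, 332 and 473 CPM in the knockdown libraries, with 1 of 10 called higher. Macrophage markers summed to 507, 255 and 233 CPM in the controls and 474, 411 and 494 CPM in the knockdown libraries. edgeR called 0 of these 12 (3 at an unadjusted p under 0.05, beside 14.5% of all genes). Without control replicate 1 it called 10 of them higher, beside 16.5% of all genes.

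The second knockdown library was thus lowest of its group in the cholangiocyte, stellate and macrophage sums as well as in the sum of the NRF2 targets. It was highest of its group in the hepatocyte sum, at 119098 CPM beside 115699 and 104809. The endothelial sum ran from 164 to 227 CPM over all 6 libraries. In the knockdown libraries it was 164, 214 and 227 CPM, so the first library was lowest there, not the second. Lymphocyte and neutrophil markers stayed under 1 CPM. The part of cell composition in the spread of the NRF2 targets was not tested. The second knockdown library was lowest of its group for 9 of the 10 genes, so a rise on leaving it out was built into that choice. The median log2 difference of the 10 genes was then 0.47, beside 0.00 for all genes. edgeR called 0 of the 10 (4 at an unadjusted p under 0.05, beside 12.1% of all genes). That fit called 0.0707% of all genes.

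Control replicate 1 was either the highest or the lowest control for all 10 genes, as it was for 89.4% of all tested genes (the highest for 47.6% and the lowest for 41.8%). It was the highest control for Nqo1, Txnrd1, Srxn1, Gsr, G6pdx and Osgin1, and the lowest for Gclc, Gclm, Slc7a11 and Gpx2. The first set had transcripts of 46.7% to 59.3% GC and the second of 40.7% to 48.1%. For 8 of the 10 genes the counts and the deposited FPKM values placed it alike. Gclm in control replicate 1 was 0.684 times the mean of the other controls in CPM but 1.27 times in FPKM, and Slc7a11 0.320 times in CPM but 1.32 times in FPKM. Such opposite placing occurred for 5.91% of the 13291 genes compared. Gclm and Slc7a11 have the longest transcripts of the 10, at 5589 and 9223 bases beside 1553 to 3622 for the others, and the part of length or GC content in the disagreement was not tested. The level of these 2 genes in control replicate 1 therefore depends on which deposited table is read.

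The genes that control NRF2 did not pass the test with all 6 libraries either. Nfe2l2, which encodes NRF2, was at 57.4, 119 and 94.1 CPM in the controls and 122, 129.8 and 118 CPM in the knockdown libraries, where the values lay close together and overlapped with the highest control. Its log2 difference was 0.45 (SE 0.27, edgeR adjusted p = 0.522), and 0.22 without control replicate 1 (edgeR adjusted p = 0.279). The second knockdown library, the lowest for most targets, was the highest of its group for Nfe2l2. NRF2 protein, which is where KEAP1 acts, was not measured.

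Keap1, the adaptor that targets NRF2 for degradation, was at 63.8, 41.4 and 41.8 CPM in the controls and 52.7, 49.0 and 40.1 CPM in the knockdown libraries (log2 difference -0.05, SE 0.24, edgeR adjusted p = 0.946). Bach1, the repressor that competes for the element, was at 23.0, 46.4 and 38.9 CPM and at 36.3, 30.3 and 28.2 CPM (-0.19, SE 0.28, edgeR adjusted p = 0.800). Control replicate 1 was the lowest control for Bach1, and without it Bach1 was called lower at -0.42 (edgeR adjusted p = 0.0483, and 0.0218 to 0.984 over the alternatives). Mafg, a small MAF partner, was at 119, 99.96 and 78.4 CPM and at 81.9, 73.8 and 55.1 CPM (-0.50, SE 0.24, edgeR adjusted p = 0.396). Mafg was called lower at -0.74 with the GC and length offset without control replicate 1 (edgeR adjusted p = 0.00472). Its adjusted p ran from 0.00472 to 0.803 over the alternatives. Over the list of 15 regulators and partners, edgeR called 0 (0 also at an unadjusted p under 0.05, beside 14.5% of all genes). Without control replicate 1 it called 2 higher and 2 lower, beside 16.5% and 16.1% of all genes. The median of the list with all 6 libraries was -0.07. Palb2, which encodes a KEAP1-binding protein, had the smallest p of the list, at a log2 difference of 1.22 (SE 0.52, edgeR adjusted p = 0.347). It was scarce, with 8, 25 and 26 reads in the controls and 67, 35 and 74 reads in the knockdown libraries. Without control replicate 1 its difference was 0.88 (SE 0.43, edgeR adjusted p = 0.145).

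Other NRF2 targets, a list of 44 genes led by Hmox1, ferritins, glutathione S-transferases and drug-metabolising enzymes, had 42 tested members. edgeR called 0 of them with all 6 libraries (8 at an unadjusted p under 0.05, beside 14.5% of all genes). Without control replicate 1 it called 7 higher and 5 lower, beside 16.5% and 16.1% of all genes. With all 6 libraries the median of the list was -0.10 and 17 of the 42 were positive, beside 45.3% of all genes. The smallest p belonged to Ptgr1, prostaglandin reductase, at 10.6, 6.19 and 8.06 CPM in the controls and 31.1, 19.8 and 31.4 CPM in the knockdown libraries (log2 difference 1.73, SE 0.29, edgeR adjusted p = 0.0519). Blvrb, biliverdin reductase B, was at 161, 147 and 178 CPM and at 97.3, 109 and 88.1 CPM (-0.72, SE 0.18, edgeR adjusted p = 0.135). Without control replicate 1, Ptgr1 was called higher at 1.96 and Blvrb lower at -0.72 (edgeR adjusted p = 0.000412 and 0.00495). Over the alternatives the adjusted p ran from 2.54e-05 to 0.258 for Ptgr1, which DESeq2 and limma-voom also called, and from 0.00134 to 0.540 for Blvrb. Ptgr1 and Blvrb did not overlap between groups, as for 23.1% of all tested genes, and their differences pointed in opposite directions.

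In this list, too, the second knockdown library was often lowest of its group: for 32 of the 42 tested genes, beside 34.8% of all tested genes. For 13 of the 42 it was lowest with a ratio over 1.5, beside 11.1%. Cbr3, a carbonyl reductase named after its values were seen, had the largest such ratio, 4.97, with 30.8, 7.66 and 38.0 CPM in the knockdown libraries. Counting only whether the second knockdown library was lowest (34.8% of all tested genes), it was 8 of 25 in the list of glutathione synthesis and use, 5 of 19 in the thioredoxin and peroxiredoxin list, 6 of 14 for pentose phosphate and NADPH enzymes, 2 of 14 for superoxide and peroxide enzymes and 3 of 15 for the regulators. With a ratio over 1.5 as well, the counts of these 5 lists were 3, 1, 2, 1 and 1 in the same order. Lists shared some genes: the 2 of the pentose phosphate list were also among the 13 of the other NRF2 targets. The second knockdown library was also often lowest among markers of some cell types. That held for 5 of 6 tested cholangiocyte, 7 of 10 stellate and fibroblast and 7 of 12 macrophage markers. It held for 1 of 10 endothelial and 0 of 10 hepatocyte markers. With a ratio over 1.5 as well, these marker lists had 3, 5, 1, 1 and 0 in the same order. A low second knockdown library was thus not particular to NRF2 targets.

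Few genes of the remaining redox lists passed the test with all 6 libraries, where 0.864% of all tested genes were called. In the thioredoxin and peroxiredoxin list, 1 of 19 tested genes was called: Msrb3, a methionine sulfoxide reductase, rose from 11.2, 9.46 and 10.98 CPM in the controls to 27.0, 27.6 and 23.8 CPM (log2 difference 1.31, SE 0.19, edgeR adjusted p = 0.0377, and 5.01e-07 to 0.219 over the alternatives). The median of that list was 0.08. edgeR called 0 of 25 genes of glutathione synthesis and use (5 at an unadjusted p under 0.05, beside 14.5% of all genes). The list median was -0.22 and 5 genes were positive. The smallest p there belonged to Chac1, which degrades glutathione, at 2.04 (SE 0.50, edgeR adjusted p = 0.133), and to glutaredoxin, Glrx, at -0.70 (SE 0.17, edgeR adjusted p = 0.138). Chac1 stood at 0.232, 0.258 and 0.195 CPM in the controls and at 0.970, 1.33 and 0.559 CPM in the knockdown libraries, so it was scarce throughout.

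Among 14 pentose phosphate and NADPH enzymes, other than G6pdx, edgeR called 0 (2 at an unadjusted p under 0.05, beside 14.5% of all genes). The list median was -0.20. NAD kinase, Nadk, which makes NADP, had the smallest p at -0.67 (SE 0.17, edgeR adjusted p = 0.142), followed by the folate enzyme Mthfd1 at -0.52 (SE 0.22, edgeR adjusted p = 0.334). Of 14 superoxide and peroxide enzymes edgeR called 0 (2 at an unadjusted p under 0.05), with a median of 0.09. Aifm2, a quinone reductase that limits ferroptosis, was at -0.98 (SE 0.20, edgeR adjusted p = 0.0801), and Sod2, the mitochondrial superoxide dismutase, at -0.71 (SE 0.18, edgeR adjusted p = 0.138). Without control replicate 1, 16.5% of all genes were called higher and 16.1% lower. In the order glutathione, thioredoxin, pentose phosphate and superoxide, these lists then had 2, 6, 2 and 5 genes called higher. Called lower were 4, 1, 3 and 3 in the same order. Chac1 was among those called higher, and Glrx, Nadk, Aifm2 and Sod2 among those called lower, with edgeR adjusted p-values of 0.0232, 0.00329, 0.00852, 0.00119 and 0.00512 in that order. Over all alternatives the highest adjusted p of these 5 genes lay between 0.413 and 0.581.

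Slc7a11 is also known as a target of ATF4, the transcription factor of the amino acid response, so the list of ATF4 targets, which includes Slc7a11, was read beside it. Of 19 tested genes, edgeR called 1 (beside 0.864% of all genes): Ddit4, an inhibitor of mTORC1 signalling. Ddit4 fell from 24.1, 27.1 and 23.4 CPM in the controls to 8.75, 10.7 and 7.23 CPM in the knockdown libraries (log2 difference -1.48, SE 0.22, edgeR adjusted p = 0.0384, and 8.56e-07 to 0.256 over the alternatives). The median of the list was 0.65, with 12 of 19 positive. At an unadjusted p under 0.05 (edgeR) there were 7 of 19, beside 14.5% of all genes. Without control replicate 1 there were 7 called higher and 2 called lower of 20, beside 16.5% and 16.1% of all genes. The second knockdown library was lowest of its group for 8 of the 19, beside 34.8% of all tested genes. For 5 of the 19, Slc7a11 among them, it was lowest with a ratio over 1.5, beside 11.1%.

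**Figure D5:**
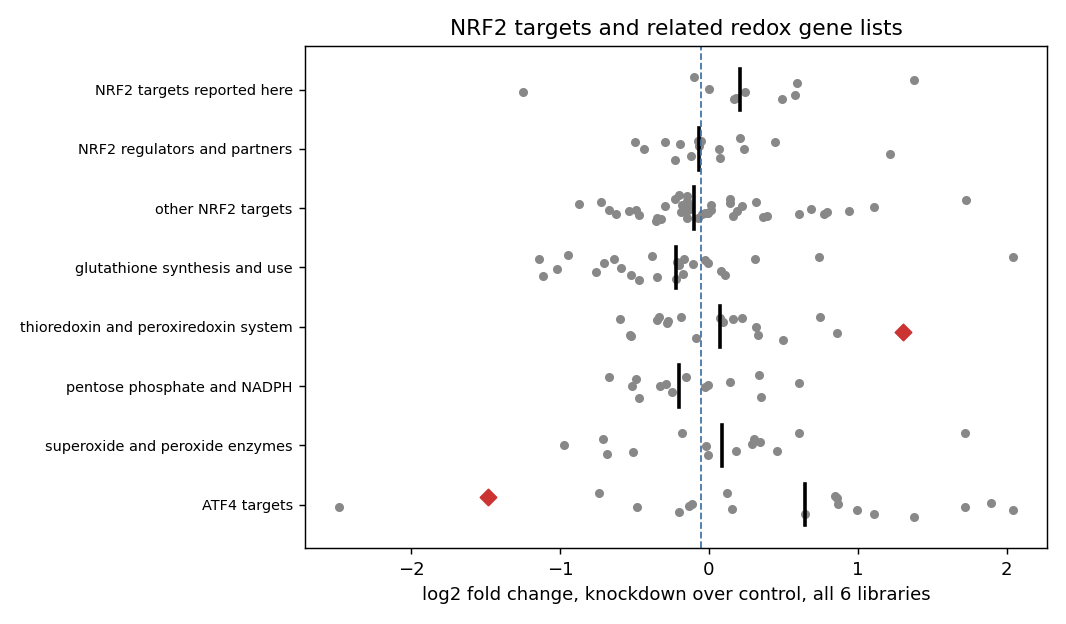
Log2 fold change of knockdown over control with all 6 libraries for the 10 NRF2 targets and 7 related lists; each point is a gene, black bars are list medians, red diamonds are genes with an adjusted p under 0.05 and the dashed line is the median of all tested genes (-0.05). Msrb3 and Ddit4 are the called genes, and none of the 10 targets is called.

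The genes whose pattern over the 6 libraries was most like that of Nqo1 were searched among 8781 genes outside the 10 that had a standard symbol and averaged 5 CPM or more. Likeness was the root mean square difference of centred log2 CPM. Fastkd3 was nearest, at 0.0687, followed by Oasl1 at 0.0742, Gltp at 0.0805, Apoa4 at 0.0893 and Rit1 at 0.0981. Fastkd3 was at 9.17, 5.07 and 5.46 CPM in the controls and 6.93, 4.94 and 6.60 CPM in the knockdown libraries, with the same high control and low second knockdown library as Nqo1. Among the other 9 targets, Gsr was nearest to Nqo1 at 0.148 and Txnrd1 came next at 0.276, while Slc7a11, at 1.25, was farthest.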

How the data were processed

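The 10 genes and all gene lists were chosen with earlier results of these data known. Liver RNA was sequenced in 3 control and 3 knockdown libraries. The authors deposited raw counts of reads per gene for each library and a table of FPKM values. FastQC, Trim Galore, HISAT2 (listed as 2.10), HTSeq, Cufflinks 2.2.1 and GRCm38 (mm10) are named per the submitters' processing notes. No source used here gives the strand setting.

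Symbols were taken from the FPKM table and linked to the counts by identifier. Coordinates, GC content and length came from GENCODE M21 (GRCm38) and promoter windows from RefSeq (GRCm38.p6). Lines that name no gene (2.48% to 5.66% of reads outside genes, 4.69% to 6.87% ambiguous) were left out. Genes were filtered by filterByExpr and the counts scaled by TMM (factors 0.852 to 1.13). They were tested on group alone with the quasi-likelihood test of edgeR 4.0.16 (R 4.3.3), with Benjamini-Hochberg adjustment over all 13767 genes tested. A gene was called at an adjusted p under 0.05. SEs of edgeR differences were back-calculated, as the absolute log2 difference divided by the square root of the test's F statistic. On simulated data the script recovered 4% of 2-fold and 70% of 4-fold changes with all 6 libraries. Without control replicate 1 it recovered 78% and 98%. A gene that did not pass with all 6 libraries may therefore still differ. The labels do not say whether samples with the same number pair. The correlation of their deviations was 0.253, -0.082 and 0.290, which cannot settle it.

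Named were all 10 genes, Nfe2l2, Keap1, Bach1, Mafg and Atoh8, up to 4 called genes of each list by smallest p or the first 2 where none passed, and the 5 genes most like Nqo1. A gene outside this rule is marked where it is named. The 18 alternatives were DESeq2 1.42.0, no filter, a minimum of 1 CPM in 3 libraries, median ratio size factors, limma-voom (limma 3.58.1) with quality weights, a limma fit of log2(FPKM + 1) or of log2(FPKM + 0.1), each for genes of at least 0.5 FPKM in 3 libraries, the replicate block, removal of mitochondrial and the 20 most abundant genes, a GC and length offset (loess span 0.3) alone, with the block or without control replicate 1, and each library left out. A gene of the cholangiocyte marker list is not reported here and was left out of its sums.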

Additional observations from a re-analysis of the deposited data

How the results depend on the processing

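Control replicate 1 and the second knockdown library limit these results, and the SE of a log2 difference had a median of 0.32 over all genes, and of 0.19 without control replicate 1. Some differences of several SEs, such as that of Glrx, did not pass with all 6 libraries. Scarce genes such as Slc7a11 add counting error. The GC and length offset moved the median of all genes to -0.15, from -0.05.

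Genes called higher numbered 102, and 213 with no filter, 590 with DESeq2, 2576 with limma-voom, 322 with the GC and length offset, 1762 with the offset without control replicate 1, and 0 to 2348 over the libraries left out. Genes called lower numbered 17, and 34, 221, 2512, 300 and 2754 in that order, 27 with log2(FPKM + 1), and 0 to 2284 over the libraries left out. The replicate block gave 33 higher and 2 lower genes, and 167 and 76 with the offset. The block called 0 of the 10 NRF2 targets, and 0 higher and 0 lower of the 137 tested pathway genes. Control 2 deviated most like knockdown replicate 3 (0.270), so not every sample correlated best with its own number.

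Of the 10 targets, limma-voom called 2 higher and 1 lower, the offset without control replicate 1 called 1 lower, and leaving out libraries 0 to 1 in each direction, the 1 being without control replicate 1. Pathway genes called higher were 1, and 2 with no filter, 2 at 1 CPM, 5 with DESeq2, 29 with limma-voom, 0 with log2(FPKM + 0.1), 2 with the offset, 22 with the offset without control replicate 1, and 0 to 27 over the libraries left out. Those called lower were 1, and 2 with no filter, 8 with DESeq2, 21 with limma-voom, 7 with the offset, 2 with block and offset, 30 with the offset without control replicate 1, and 0 to 20 over the libraries left out.

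Nqo1 turned sign with median ratio size factors (-0.00391), DESeq2 (-0.00513), the most abundant genes removed (-0.00115), the offset (-0.13) and block with offset (-0.0500), and ran from -0.18 to 0.37 over the libraries left out. Gclm was 0.0891 with the offset without control replicate 1 and -0.24 to 0.0352 over the libraries left out, Osgin1 -0.14 (without control replicate 3) to 0.67, and Bach1 -0.42 to 0.0242. Keap1 was 0.00137 with no filter, 0.21 with limma-voom, 0.0614 and 0.0653 with log2(FPKM + 1) and log2(FPKM + 0.1), and -0.16 to 0.20. The causes were not tested. The other 7 targets kept their direction in every alternative run.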

Other observations

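The genes most like Srxn1 over the 6 libraries, a search chosen after its values were seen, were led by Pgd, the second NADPH-producing enzyme of the pentose phosphate pathway, at a root mean square difference of 0.145 in centred log2 CPM. Pgd was at 141, 110.2 and 126 CPM in the controls and at 216, 128 and 229.7 CPM in the knockdown libraries (log2 difference 0.60, SE 0.26, edgeR adjusted p = 0.345). Lama5 followed at 0.165, Pygb at 0.167, Cd9 at 0.176 and Arl6ip5 at 0.179. Cd9, a tetraspanin, was at 55.6, 49.2 and 59.4 CPM in the controls and at 84.5, 48.2 and 104 CPM in the knockdown libraries. Among the NRF2 targets, Gsr lay at 0.235 from Srxn1 and Txnrd1 at 0.242.

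Other NRF2 targets with a low second knockdown library, also named after their values were seen, included Ugdh, which makes UDP-glucuronic acid for conjugation, at 723, 394 and 751 CPM in the knockdown libraries and 334, 701.1 and 565 CPM in the controls. Abcc4, a bile acid and drug exporter, was at 63.9, 25.9 and 67.5 CPM in the knockdown libraries and 72.3, 49.7 and 43.7 CPM in the controls. Hmox1, heme oxygenase 1, was not arranged in that way. It was at 84.0, 90.2 and 68.6 CPM in the knockdown libraries, and its controls were at 125, 34.9 and 29.0 CPM.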
